A study of Homo sapiens with 8 samples.

Results

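The peptidases of the lysosome were followed in colon cancer cells in which UHRF1 was lowered by gene targeting, by RNA interference or by both. The set held 10 genes, chosen by name, of 19960 protein-coding genes and 60649 gene identifiers in the files: TPP1, CTSA, CTSB, CTSC, CTSD, CTSH, CTSL, CTSS, CTSZ and LGMN. The choice rested on the level of TPP1 itself, which was low in a single group, so all values of TPP1 are given as a description without a test. Of the remaining 9 genes, 8 entered the tests and CTSS did not, because it stayed below 1 TPM in every library. TPM is the share of a transcript among all those of a library, corrected for its length, so levels of different genes can be set side by side on it.

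RNA was sequenced from 4 groups of 2 libraries each. HCT116, a human colorectal carcinoma line, and UF1hypo, a clone of HCT116 in which an exon of a single UHRF1 allele was removed, each carried a short hairpin RNA, which was either scrambled (shScr) or directed at UHRF1 (shUHRF1). UHRF1 brings the maintenance methyltransferase DNMT1 to newly replicated DNA. The design asks how the transcriptome responds when UHRF1 is lowered by gene targeting, by a hairpin or by both. All 4 groups were puromycin-selected pools with a stably integrated hairpin, only 1 UHRF1 hairpin was listed, and UF1hypo is 1 clone, so a difference between the lines cannot be told apart from a property of that clone. The labels do not say whether the 2 libraries of a group came from separate cultures, and p-values therefore measure the spread between these libraries, which may be technical.

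Lysosomal peptidases break down proteins delivered by endocytosis and autophagy. Most are made as inactive precursors, are tagged with mannose 6-phosphate, and mature in the acid lumen that the V-ATPase proton pump maintains. They belong to distinct catalytic classes: CTSD is an aspartic protease, CTSB, CTSC, CTSH, CTSL, CTSS and CTSZ are papain-like cysteine cathepsins, LGMN is an asparagine-specific cysteine endopeptidase that also matures some cathepsins, CTSA is a serine carboxypeptidase, and TPP1 is a serine peptidase that removes tripeptides from the amino end of proteins. Loss of TPP1 or of CTSD causes forms of neuronal ceroid lipofuscinosis, a storage disease of the brain.

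Sequences in front of the genes are shown because UHRF1 acts on CpG methylation and because the transcription factor TFEB, which drives lysosomal genes, binds the E-box CACGTG. Promoters were taken from RefSeq on GRCh38.p14, from 250 bases before to 50 bases after the start site, and were found for 7 members (TPP1, CTSA, CTSC, CTSD, CTSH, CTSL and CTSZ) but not for CTSB, CTSS and LGMN. Over 22198 protein-coding promoters of the same length the median CpG count was 21, with quartiles of 7 and 31. The TPP1 promoter held 7 CpG, more than in 23.9% of promoters, at 59.0% GC. The CTSD promoter held 43 CpG, more than in 93.6% of promoters, and CTSH and CTSZ held 37 each, CTSA 28, CTSL 27 and CTSC 25. In the stretch of 30 bases before the start with the most CpG, written 5′ to 3′ with each CpG in capitals, TPP1 (chr11:6619544-6619573, minus strand) held 2 CpG and CTSD (chr11:1763979-1764008, minus strand) held 8:
TPP1: gactggccagaggggagaatcCGggtggCG
CTSD: CGctcCGcccCGcccCGCGcaCGcCGgcCG

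The E-box, which reads the same on both strands, was present in 8.34% of protein-coding promoters, and its longer form TCACGTG or CACGTGA, which contains the same 6 letters, in 4.44%. Among the 7 members it was found at 2 places in the CTSA promoter and at 1 in the CTSD promoter, and these letters were not in the windows of TPP1, CTSC, CTSH, CTSL and CTSZ. The sites are shown with the E-box in capitals, at 42 and 25 bases before the start of CTSA (chr20:45891281-45891310 and chr20:45891298-45891327, plus strand) and at 47 bases before that of CTSD (chr11:1763957-1763986, minus strand):
CTSA, distal: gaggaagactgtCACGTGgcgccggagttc
CTSA, proximal: ggcgccggagttCACGTGactcgtacacat
CTSD: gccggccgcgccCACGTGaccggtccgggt

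Facts of the libraries that touch these genes were as follows. The depth estimated from the ratio of coverage to FPKM was 5.42 to 7.83 aligned gigabases per library. UHRF1 RNA itself went from 87.5 and 98.4 TPM to 31.7 and 32.7 TPM with its hairpin in HCT116. In UF1hypo it went from 47.3 and 50.6 TPM to 34.1 and 21.1 TPM. With the UHRF1 hairpin, its RNA levels therefore overlapped between the lines. The 2 UF1hypo shUHRF1 libraries stood apart from each other by base composition: between the tenth of genes lowest in GC (median 38.8%) and the tenth highest (median 64.9%), the median difference of replicate 1 from replicate 2 went from -0.99 to 0.55 on the log2 scale. The 15 listed interferon-stimulated genes summed to 325 to 461 TPM in the HCT116 libraries, but for UF1hypo to 5590 and 6025 TPM under shScr and 18700 and 23960 TPM under shUHRF1. Of the 10 epithelial markers, EPCAM was at 174 to 372 TPM and CDX2 at 12.2 to 18.3 TPM, while CDX1 and VIL1 stayed below 1 TPM. The sum of all 10 went from 4590 and 4630 TPM with shScr to 5869 and 5748 TPM with shUHRF1 for HCT116, and from 9263 and 9633 to 13300 and 10250 TPM for UF1hypo. The 12 markers of macrophages and other leukocytes, cells rich in lysosomal peptidases, summed to 2.01 to 6.41 TPM, with C1QA and C1QB at 0 throughout and PTPRC at most 0.0728 TPM.

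TPP1 (ENSG00000166340.18, chr11:6612768-6619448 on GRCh38, minus strand) was low in the 2 HCT116 shUHRF1 libraries and at a similar level in the other 6. The HCT116 libraries held 61.8 and 54.4 TPM under shScr but 19.9 and 16.4 TPM under shUHRF1, whereas those of UF1hypo held 59.2 and 65.9 TPM under shScr and 62.7 and 57.1 TPM under shUHRF1. The highest HCT116 shUHRF1 library was below the lowest of all other libraries, and the other 3 groups overlapped. The means of these groups, in the same sequence, were 58.1 ± 5.22, 18.1 ± 2.46, 62.6 ± 4.79 and 59.9 ± 3.94 TPM (SD, n = 2 in each). On the log2(TPM + 1) scale TPP1 was lower by 1.63 with shUHRF1 in HCT116, a 3.09-fold lower level, and differed by -0.06 with the same hairpin in UF1hypo. The difference between these knockdown effects was 1.57. Without each HCT116 library in turn, the HCT116 value lay between -1.76 and -1.50.

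The same TPP1 values are given here as read coverage before scaling to all transcripts, which is not a separate observation. Mean coverage of TPP1 per aligned gigabase was 14.7 and 13.3 under shScr and 4.76 and 3.73 under shUHRF1 for HCT116. For UF1hypo it was 14.3 and 16.0 under shScr and 14.0 and 13.7 under shUHRF1. The uncorrected coverage behind the lowest TPM value was 21.1 reads per base and that behind the highest was 114.5 reads per base, so no TPP1 value rested on a sparsely covered gene. The gene overlaps a long noncoding RNA on its own strand, RP11-732A19.10, which reached at most 1.27 TPM, and another on the opposite strand, RP11-732A19.9, which was listed at 0 in every library. Whether the quantification used strand is not given in the sources used here, so reads of the shared bases cannot be assigned to either gene with certainty.

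**Figure D1:**
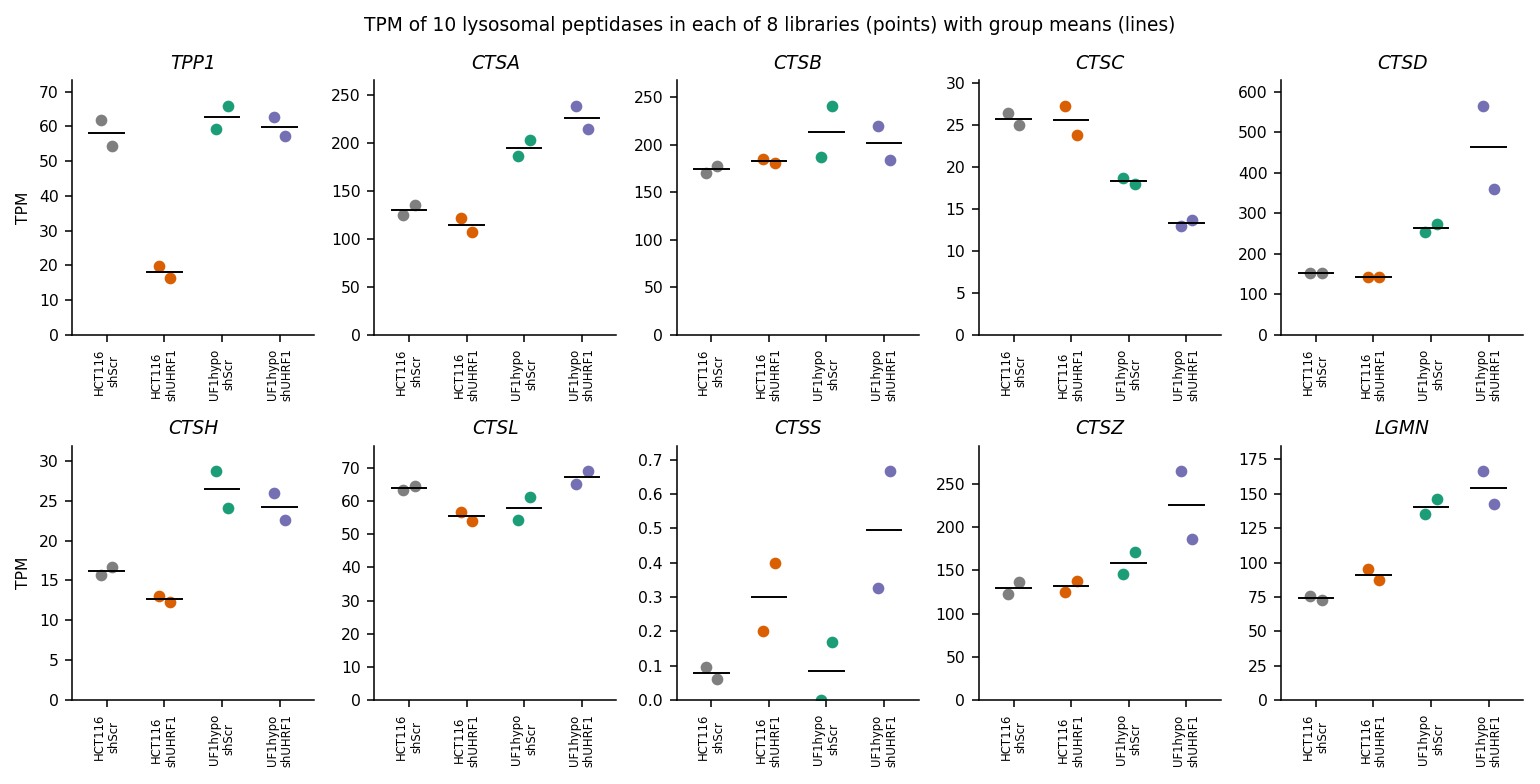
Level of each of the 10 lysosomal peptidases in TPM (y axis, linear from 0, a scale of its own in each panel) in the 4 groups (x axis), with a point for each library and a line at the mean of 2 libraries. TPP1 lies at 16.4 to 19.9 TPM in HCT116 shUHRF1 and at 54.4 to 65.9 TPM elsewhere, whereas CTSD lies highest in UF1hypo shUHRF1, at 359 and 566 TPM.

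In HCT116, where TPP1 was low with shUHRF1, none of the other peptidases passed the test of the knockdown. Of the 8 members tested, 0 had an adjusted p below 0.05 (limma, Benjamini-Hochberg over 12704 genes), against 0.0708% of all genes called in this contrast. An unadjusted p below 0.05 was reached by 0 of the 8, against 810 of the 12704 genes. Their log2 differences lay between -0.33 for CTSH and 0.29 for LGMN, with a median of -0.05 beside -0.03 over all genes tested. Because the threshold was met by only 9 genes in the whole table, these values do not show that the peptidases were unaffected.

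In HCT116, CTSB and LGMN lay above and CTSA, CTSD, CTSH and CTSL below their shScr libraries in both shUHRF1 libraries. The share of all genes that separated in this way was not counted, so this is a description. CTSD, the major aspartic protease of lysosomes, was at 152 and 153 TPM with shScr and 143 in each shUHRF1 library, a difference of -0.10 (SE 0.20). CTSB, a cysteine protease with both endopeptidase and carboxydipeptidase activity, was at 170 and 177 TPM with shScr and 185 and 181 TPM with shUHRF1. CTSH, an aminopeptidase, was at 15.7 and 16.7 TPM with shScr and 13.0 and 12.3 TPM with shUHRF1, so that the groups did not overlap, and the difference of -0.33 (SE 0.18) had an adjusted p of 0.89. LGMN went the other way, from 75.6 and 72.9 TPM to 95.01 and 87.5 TPM, again without overlap, with a difference of 0.29 (SE 0.15) and an adjusted p of 0.87.

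Among the remaining members in HCT116, CTSA was at 125 and 136 TPM with shScr and 122 and 107 TPM with shUHRF1, and CTSL, a potent endopeptidase, at 63.4 and 64.6 against 56.8 and 53.9 TPM. Both were lower in each shUHRF1 library, by 0.19 (SE 0.15) and 0.21 (SE 0.15) on the log2 scale for CTSA and CTSL. CTSC, the dipeptidyl peptidase that activates serine proteases of leukocyte granules, overlapped between the groups at 26.4 and 25.1 against 27.3 and 23.8 TPM. CTSZ, a carboxypeptidase, overlapped as well, at 122 and 137 against 125 and 138 TPM. CTSS, which trims the invariant chain of MHC class II in antigen-presenting cells, lay between 0 and 0.666 TPM over the 8 libraries.

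With shUHRF1 in UF1hypo, CTSD rose, while TPP1 overlapped between the groups. CTSD was at 255 and 275 TPM in UF1hypo shScr and at 566 and 359 TPM in UF1hypo shUHRF1, with no overlap. The log2 difference was 0.77 (SE 0.20, adjusted p = 0.0407 by limma). It was the only member of 8 to pass, against 13.3% of the 13620 genes tested. An unadjusted p below 0.05 was reached by 3 of the 8, against 3735 of the 13620 genes. CTSD is among the members richest in GC, at 63.5% over its transcripts. The 2 shUHRF1 libraries differed at CTSD by 0.65 on the log2 scale. The median for the tenth of genes highest in GC was 0.55. Whether base composition had a part in the CTSD values was not tested. The knockdown difference of CTSD was 0.44 without replicate 1 of UF1hypo shUHRF1 and 1.09 without replicate 2. It was 0.46 after correction for GC content and length. It lost its adjusted p without either UF1hypo shScr library (0.229 and 0.144), in the 4 libraries alone (0.199), with the replicate number as a block (0.0608), without the TPM filter (0.0626), with median-ratio scaling (0.0883), without a variance trend (0.0637) and with library weights (0.0787), and passed in 5 of 11 alternatives.

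CTSZ and CTSC were the members next to CTSD in the size of their difference in UF1hypo, in opposite directions. CTSZ was at 146 and 172 TPM with shScr and at 265 and 187 TPM with shUHRF1, a difference of 0.49 (SE 0.19, adjusted p = 0.138). CTSC was at 18.8 and 17.99 TPM with shScr and at 12.9 and 13.7 TPM with shUHRF1, a difference of -0.44 (SE 0.17, adjusted p = 0.138). Neither passed over all libraries. The groups did not overlap for either gene, and the share of all genes that separated in this way was not counted. Without replicate 2 of UF1hypo shUHRF1 both passed, at 0.74 (adjusted p = 0.00779) for CTSZ and -0.48 (adjusted p = 0.0347) for CTSC, and without replicate 1 the values were 0.24 and -0.40.

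The other members of the UF1hypo comparison stayed within 0.22 on the log2 scale. CTSA was at 187 and 204 TPM with shScr and 239 and 214 TPM with shUHRF1, and CTSL at 54.4 and 61.2 against 65.3 and 69.0 TPM, each a difference of 0.21. LGMN, CTSH and CTSB overlapped between the groups, at 135 to 166, 22.6 to 28.7 and 184 to 241 TPM over the 4 libraries. The median over the 8 members was 0.17 beside 0.04 over all genes tested.

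The knockdown effect in UF1hypo was set against that in HCT116 by an interaction term, which used all 8 libraries. None of the 8 tested members passed (0 of 8 at adjusted p below 0.05), against 5.22% of 13781 genes that passed, 4.54% called higher and 0.559% called lower. An unadjusted p below 0.05 was reached by 1 of 8 members, against 2549 of the 13781 genes. The largest of these differences was that of CTSD, at 0.86 (SE 0.29, adjusted p = 0.143), followed by CTSZ at 0.47 (SE 0.27), CTSC at -0.42 (SE 0.24), CTSL at 0.42 (SE 0.21) and CTSA at 0.40 (SE 0.20). CTSD passed without replicate 1 or replicate 2 of UF1hypo shUHRF1, and CTSZ without replicate 2. With standard errors of 0.20 to 0.29, these values do not show that the effects were alike in the lines.

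**Figure D2:**
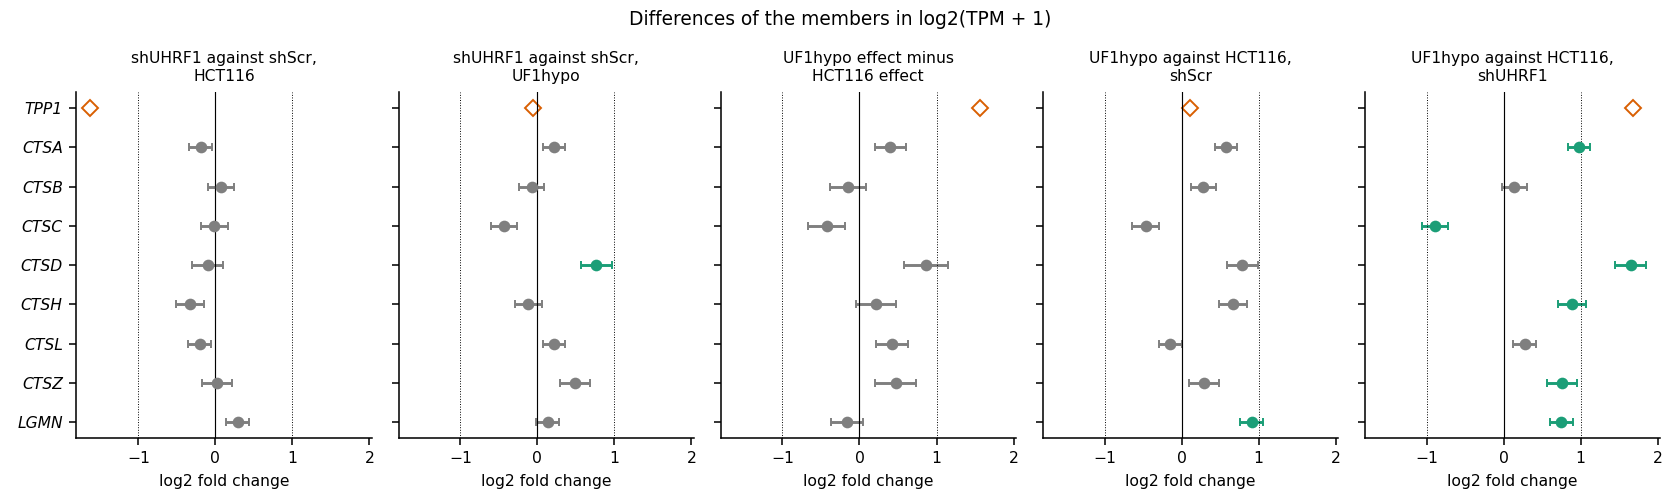
Differences of 9 members in log2(TPM + 1) (x axis) in the 5 comparisons (panels), with bars of 1 SE from limma. Open diamonds give TPP1 without an error or a test, green points are members with an adjusted p below 0.05 (0, 1, 0, 1 and 6 of 8 from left to right), and dotted lines mark a log2 difference of 1.

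Before any UHRF1 knockdown, UF1hypo differed from HCT116 in LGMN. LGMN was at 75.6 and 72.9 TPM in HCT116 shScr and at 135 and 146 TPM in UF1hypo shScr, a difference of 0.91 (SE 0.15, adjusted p = 0.0104), or 1.88-fold. Of 8 members it alone passed, against 4.78% of 12856 genes. An unadjusted p below 0.05 was reached by 5 of 8 members, against 2341 of the 12856 genes. In each fit without 1 of the 4 libraries, LGMN kept a difference of 0.85 to 0.97 but its adjusted p was 0.0847 to 0.145.

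The same comparison gave higher levels of most members in UF1hypo without passing the threshold. CTSD was at 152 and 153 TPM in HCT116 shScr and 255 and 275 TPM in UF1hypo shScr (0.79, SE 0.20, adjusted p = 0.0652). CTSA was at 125 and 136 against 187 and 204 TPM (0.58, SE 0.15, adjusted p = 0.0635), and CTSH at 15.7 and 16.7 against 28.7 and 24.1 TPM (0.67, SE 0.18, adjusted p = 0.0803). CTSC was at 26.4 and 25.1 against 18.8 and 17.99 TPM (-0.47, SE 0.17, adjusted p = 0.190). CTSB (0.28) and CTSZ (0.29) were higher in UF1hypo and CTSL was lower (-0.15), with adjusted p of 0.416 to 0.645 by limma. Neither these genes nor the 4 before them overlapped between the lines. The share of all genes that separated in this way was not counted, so this is a description. TPP1 overlapped, with a difference of 0.11. The median over the 8 members was 0.43 beside -0.05 over all genes tested. Of 8 epithelial markers tested in the same comparison, KRT8, KRT18, KRT19 and CLDN4 were called higher in UF1hypo (1.02 to 1.22), against 2.59% of all genes; KRT8 and KRT19 lost the threshold in each of 4 fits without 1 library and CLDN4 in 3. Their part in the differences of the peptidases was not tested.

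With shUHRF1 in both lines, more members passed the test. Of the 8 members tested, 5 were higher and 1 was lower in UF1hypo, against 20.7% of the 13650 genes higher and 9.60% lower at the same adjusted p. CTSD was at 143 TPM in each HCT116 shUHRF1 library and at 566 and 359 TPM in UF1hypo shUHRF1, a difference of 1.65 (SE 0.20, adjusted p = 0.000664), or 3.14-fold. It was the only member of 8 with a log2 difference above 1, where 12.2% of all genes were called higher. TPP1, which was 18.1 against 59.9 TPM on average, differed by 1.67, a value that comes from the low level in HCT116 shUHRF1 that chose the gene.

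The other members that passed between the lines with shUHRF1 had smaller differences. CTSA was at 239 and 214 TPM in UF1hypo against 122 and 107 TPM in HCT116 (0.98, SE 0.14, adjusted p = 0.00166), and CTSH at 26.0 and 22.6 TPM against 13.0 and 12.3 TPM (0.89, SE 0.18, adjusted p = 0.00798). CTSZ was at 265 and 187 TPM against 125 and 138 TPM (0.76, SE 0.19, adjusted p = 0.0194), and LGMN at 166 and 142 TPM against 95.01 and 87.5 TPM (0.75, SE 0.15, adjusted p = 0.00632). CTSC was the member that was lower in UF1hypo, at 12.9 and 13.7 TPM against 27.3 and 23.8 TPM (-0.89, SE 0.17, adjusted p = 0.00601). CTSL, with a difference of 0.27 (SE 0.15, adjusted p = 0.186), and CTSB, with 0.14 (SE 0.16, adjusted p = 0.553), did not pass. CTSA and CTSD passed in all 11 alternatives of this comparison, CTSC, CTSH and CTSZ in 9 each and LGMN in 10. In the 4 libraries alone, CTSC, CTSH, CTSZ and LGMN lost the threshold (adjusted p = 0.0655, 0.0676, 0.0724 and 0.0641). Without replicate 1 of HCT116 shUHRF1 4 of 8 passed, and without replicate 2 of that group 3 of 8. Of the 8 epithelial markers tested in this comparison, CDH1 (1.52), KRT18 (1.05) and KRT19 (1.23) were called higher in UF1hypo, against 12.2% of all genes. None was called lower, and CLDN3 had the lowest value, -0.53. The comparisons between the lines share their libraries with the knockdown comparisons and are not independent of them. The interferon-stimulated genes and the epithelial markers called higher were not tested for a part in these differences.

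Set against each other by TPM, CTSC, CTSH and CTSS were the least abundant members, except that TPP1 lay between CTSC and CTSH in HCT116 shUHRF1. CTSB was the most abundant in HCT116, with a mean of 174 TPM with shScr and 183 TPM with shUHRF1, and CTSD in UF1hypo, with 265 and 463 TPM. Neighbours in the order whose libraries overlapped were CTSA with CTSZ in HCT116 shScr, CTSB with CTSA, CTSZ with LGMN and TPP1 with CTSL in UF1hypo shScr, and CTSA, CTSZ and CTSB in UF1hypo shUHRF1. TPP1 was 7th of 10 under shScr and 8th, below CTSC, under shUHRF1 for HCT116, and 6th and then 7th for UF1hypo.

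Together the 10 genes summed to 813 and 837 TPM under shScr and 786 and 764 TPM under shUHRF1 for HCT116, and to 1070 and 1206 TPM against 1623 and 1250 TPM for UF1hypo. TPP1 made up 7.05% of this sum on average under shScr and 2.34% under shUHRF1 for HCT116, and 5.50% against 4.22% for UF1hypo. CTSD made up 18.5% and 18.4% for HCT116 and 23.3% and 31.8% for UF1hypo, so the lower share of TPP1 in UF1hypo stood beside a larger sum, with TPP1 levels that overlapped between the hairpins.

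The genes around TPP1 are given beside it as a description of the region. Within 100 kb of TPP1 lie 6 other protein-coding genes, DNHD1, RRP8, ILK, TAF10, DCHS1 and MRPL17. TAF10, a subunit of the general transcription factor TFIID whose gene lies 0.229 kb beyond the 3′ end of TPP1 on the same strand, was at 36.7 and 36.8 TPM in HCT116 shScr and 34.6 and 36.8 TPM in HCT116 shUHRF1. ILK, the integrin-linked kinase, 1.89 kb away, was at 49.0 and 58.0 against 67.3 and 62.2 TPM. MRPL17, a mitochondrial ribosomal protein, was at 47.8 and 56.3 against 62.0 and 50.1 TPM. In HCT116 0 of the 5 tested neighbours passed, with differences from -0.41 for DNHD1 to 0.28 for ILK, and DCHS1 stayed below 1 TPM. Only 0.0708% of all genes passed in this contrast, so these values do not show that the neighbours were unaffected. A change of the whole region was not tested.

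ILK and DNHD1 passed in comparisons with UF1hypo shUHRF1, a group in which TPP1 overlapped with both shScr groups. ILK rose from 61.3 and 66.9 TPM with shScr to 156 and 105 TPM with shUHRF1 in UF1hypo (0.99, SE 0.21, adjusted p = 0.0163), but did not pass without replicate 1 or 2 of UF1hypo shScr (adjusted p = 0.132 and 0.0783). It was also higher in UF1hypo than in HCT116 with shUHRF1 (0.97, SE 0.21, adjusted p = 0.00921), but did not pass without replicate 1 or 2 of HCT116 shUHRF1 (0.0545 and 0.0774). DNHD1, a dynein-like protein, was at 10.1 and 7.51 TPM in UF1hypo shUHRF1 and 3.84 and 3.10 TPM in HCT116 shUHRF1 (1.12, SE 0.22, adjusted p = 0.00632), lost without replicate 2 of HCT116 shUHRF1 (0.0595). Over 11 alternatives, ILK passed in 9 within UF1hypo and in all 11 between the lines with shUHRF1, and DNHD1 in 10 between the lines. RRP8, TAF10 and MRPL17 did not pass in any of the 5 comparisons.

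**Figure D3:**
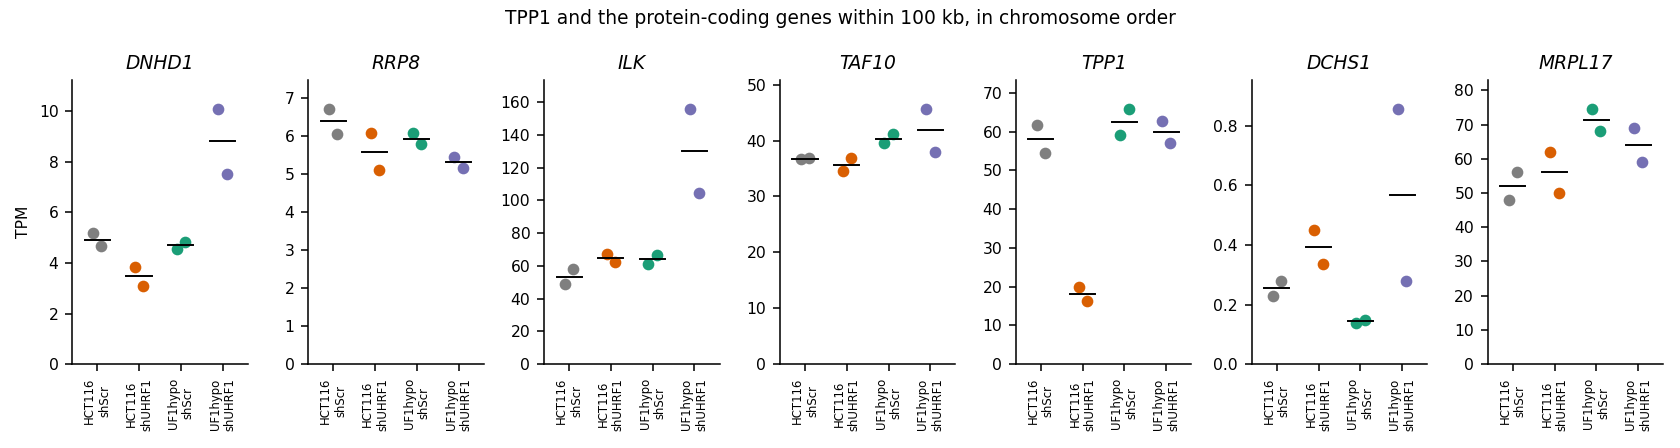
TPP1 and the 6 protein-coding genes within 100 kb, in chromosome order, as TPM (y axis, linear from 0, a scale of its own in each panel) in the 4 groups (x axis), with a point for each library and a line at each mean. In HCT116 shUHRF1 TPP1 lies at 16.4 to 19.9 TPM while TAF10 lies at 34.6 to 36.8 TPM, and ILK is highest in UF1hypo shUHRF1, at 105 and 156 TPM.

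The genes with the profile most like that of TPP1 over the 8 libraries were found by the root mean square difference of the centred log2(TPM + 1) values, among 13780 other genes. They were ELOVL1, an elongase of very long chain fatty acids (0.28), PSMB7, a catalytic subunit of the proteasome (0.28), CALB2, the calcium-binding protein calretinin (0.28), ACAA2, a thiolase of mitochondrial fatty acid oxidation (0.30), and KLF7, a zinc finger transcription factor (0.30). These genes were picked for the pattern, so their levels are a description. The TPP1 profile itself has a root mean square of 0.73 around its mean, which is the distance of a flat profile.

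All 5 genes were lowest in the HCT116 shUHRF1 libraries. PSMB7, the most abundant, was at 379 and 390 TPM against 190 and 166 TPM under shScr and shUHRF1 for HCT116, and at 371 and 361 against 410 and 451 TPM for UF1hypo. ELOVL1 was at 157 and 171 against 83.4 and 78.8 TPM for HCT116, and at 170 and 195 against 237 and 220 TPM for UF1hypo. Unlike TPP1, ELOVL1 and PSMB7 reached their highest levels in UF1hypo shUHRF1. CALB2 was at 4.67 to 5.68 TPM in HCT116 shScr and 0.993 to 0.998 TPM in HCT116 shUHRF1, and ACAA2 at 16.7 to 17.99 and 6.26 to 6.37 TPM. KLF7 was at 4.02 to 4.11 and 1.34 to 1.59 TPM. In UF1hypo, ACAA2 was at 17.76 and 17.68 TPM with shScr and at 11.65 and 14.29 TPM with shUHRF1. These ACAA2 groups did not overlap, unlike those of TPP1. For CALB2 and KLF7 the UF1hypo groups overlapped, at 2.835 to 4.673 and 3.54 to 5.989 TPM. Of the other members, CTSH was the closest, 138th with a distance of 0.48, and CTSA was 286th with 0.53. CTSD, CTSZ, CTSL, LGMN and CTSB lay at 0.66 to 0.70, ranks 2196 to 3576. By this distance 7 of 8 members were closer to TPP1 than a flat profile, as were 4925 of the 13780 genes compared. The distance uses the TPP1 values that chose the gene, so it is a description. CTSC, at 0.98 and 11852nd, was farther.

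**Figure D4:**
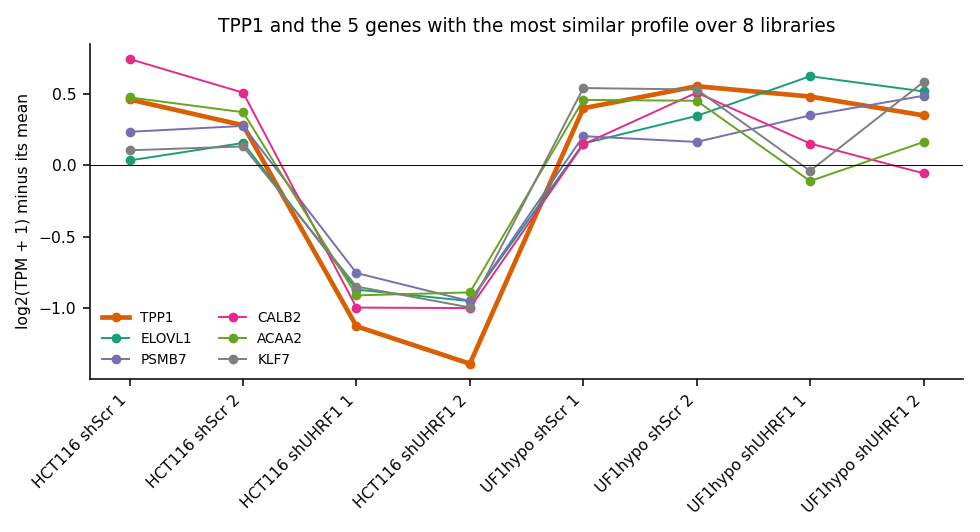
Profiles of TPP1 and of the 5 genes nearest to it (coloured lines) as log2(TPM + 1) minus the mean of each gene (y axis) in the 8 libraries (x axis). All 6 genes are lowest in the 2 HCT116 shUHRF1 libraries, and the distances from TPP1 are 0.28 to 0.30.

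Other genes of the lysosome were counted from lists of its enzymes, membrane proteins, proton pump, sorting machinery and regulators. In HCT116 with shUHRF1, 0 genes were called (adjusted p below 0.05 and a log2 difference above 1 in size) among 6 other peptidases, 33 other hydrolases, 20 membrane proteins, 19 V-ATPase subunits, 7 genes of mannose 6-phosphate tagging and sorting, 11 regulators, 4 cystatins and 10 other genes of neuronal ceroid lipofuscinosis tested. The list medians lay between -0.22 for the cystatins and 0.06 for the V-ATPase, beside -0.03 over all genes. CD68, a membrane glycoprotein of late endosomes and lysosomes, had the lowest value of the lysosomal membrane list, -0.84 (SE 0.20, adjusted p = 0.268).

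In UF1hypo with shUHRF1 a few lysosomal genes rose and most did not pass. Called higher were 1 of 33 hydrolases and 2 of 20 membrane proteins, against 7.39% of all genes called higher and 1.14% lower. SMPD1, the acid sphingomyelinase, went from 6.12 and 6.32 TPM to 28.0 and 19.0 TPM (1.74, SE 0.24, adjusted p = 0.00257). LAMP3, a lysosome-associated membrane protein that interferon induces, went from 14.2 and 13.8 TPM to 52.9 and 87.0 TPM (2.20, SE 0.26, adjusted p = 0.00104). CD68 went from 40.6 and 42.6 TPM to 107 and 77.7 TPM (1.11, SE 0.20, adjusted p = 0.00838), a call lost without replicate 1 or 2 of UF1hypo shScr (adjusted p = 0.0863 and 0.0615). RRAGD, a Rag GTPase through which mTORC1 is recruited to the lysosome, fell from 8.05 and 6.59 TPM to 2.51 and 2.998 TPM (-1.15, SE 0.20, adjusted p = 0.00699), the only regulator of 10 called, and a call lost without replicate 1 of UF1hypo shScr (adjusted p = 0.0939). Over 11 alternatives, SMPD1 and LAMP3 passed in all, and CD68 and RRAGD in 9 each. No gene was called among 9 other peptidases, 20 V-ATPase subunits, 7 sorting genes, 4 cystatins or 10 other lipofuscinosis genes.

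Between the lines with shUHRF1, 7 of 33 hydrolases were called higher in UF1hypo and 0 lower, against 12.2% of all genes higher and 3.92% lower. NEU1, the lysosomal sialidase that CTSA protects in a complex, was at 18.01 and 11.6 TPM in HCT116 shUHRF1 and 65.7 and 50.9 TPM in UF1hypo shUHRF1 (1.92, SE 0.23, adjusted p = 0.000653). SMPD1 (1.73), IDUA, the iduronidase of heparan and dermatan sulfate (1.51), and ARSA, the arylsulfatase of sulfatide (1.45), were the next largest. IDUA lost the threshold without replicate 1 or 2 of HCT116 shUHRF1 (adjusted p = 0.0587 and 0.0722) and ARSA without replicate 1 (0.0836). LAMP3, CD68 and the cholesterol-binding protein NPC2 were called among 20 membrane proteins, at 4.31, 3.57 and 1.095. Of the 4 cystatins tested, which inhibit papain-like cathepsins, CST6 was higher, at 369 and 223 TPM against 72.0 and 76.1 TPM (1.94, SE 0.24, adjusted p = 0.000763), and CSTA was lower, at 0.779 and 4.81 against 6.77 and 9.07 TPM (-1.46, SE 0.47, adjusted p = 0.0468), although of the 4 fits without 1 library CSTA passed only in that without replicate 2 of UF1hypo shUHRF1, and differed by -0.61 without replicate 1 of that group (adjusted p = 0.0891). RRAGD was lower (-1.45) and the lipofuscinosis gene CLN8 was higher (1.08, but not without replicate 1 or 2 of HCT116 shUHRF1, with adjusted p = 0.0661 and 0.0774), while 0 of 9 other peptidases, 0 of 20 V-ATPase subunits and 0 of 7 sorting genes were called.

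With shScr in both lines the same lists held few calls, against 2.59% of all genes called higher in UF1hypo and 0.949% lower. NEU1 was the hydrolase called of 33, at 28.0 and 30.9 TPM in UF1hypo shScr and 13.5 and 14.7 TPM in HCT116 shScr (1.01, SE 0.23, adjusted p = 0.0458), and it lost the threshold in each of 4 fits without 1 library (0.193 to 0.323). LAMP3 (2.28) and CD68 (1.61) were the membrane proteins called of 20. Over 11 alternatives, NEU1 passed in 8, and LAMP3 and CD68 in all. No gene was called among the other peptidases, V-ATPase subunits, sorting genes, regulators, cystatins and other lipofuscinosis genes.

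The MHC class II pathway uses CTSS and CTSL to process its invariant chain CD74, and its genes were counted for that reason. CD74 stayed below 1 TPM in the HCT116 libraries, at 0.143 to 0.830 TPM, and was at 1.99 and 2.84 TPM under shScr and 27.8 and 18.5 TPM under shUHRF1 for UF1hypo. With shUHRF1 in UF1hypo it rose by 2.81 (SE 0.25, adjusted p = 0.000276), and HLA-DPA1 (1.50) and HLA-DRB1 (1.08) were called with it, 3 of 9 tested, against 7.39% of all genes called higher. The last 2 genes lost the threshold without replicate 1 or 2 of UF1hypo shScr, with adjusted p of 0.0612 to 0.128, and HLA-DPA1 also without replicate 1 of UF1hypo shUHRF1 (0.0527). Over 11 alternatives of the UF1hypo knockdown, CD74 passed in all, and HLA-DPA1 and HLA-DRB1 in 9 each. Between the lines, 2 of 9 with shScr (HLA-DRA and CD74) and 6 of 8 with shUHRF1 were called higher, against 2.59% and 12.2% of all genes. With shScr, CD74 lost the threshold in each fit without 1 library (adjusted p = 0.0635 to 0.167) and HLA-DRA in 3 of 4, and with shUHRF1 HLA-DRA did without replicate 1 or 2 of HCT116 shUHRF1 (0.0802 and 0.0835). CTSS, in contrast, stayed below 1 TPM and CTSL did not pass in any comparison.

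**Figure D5:**
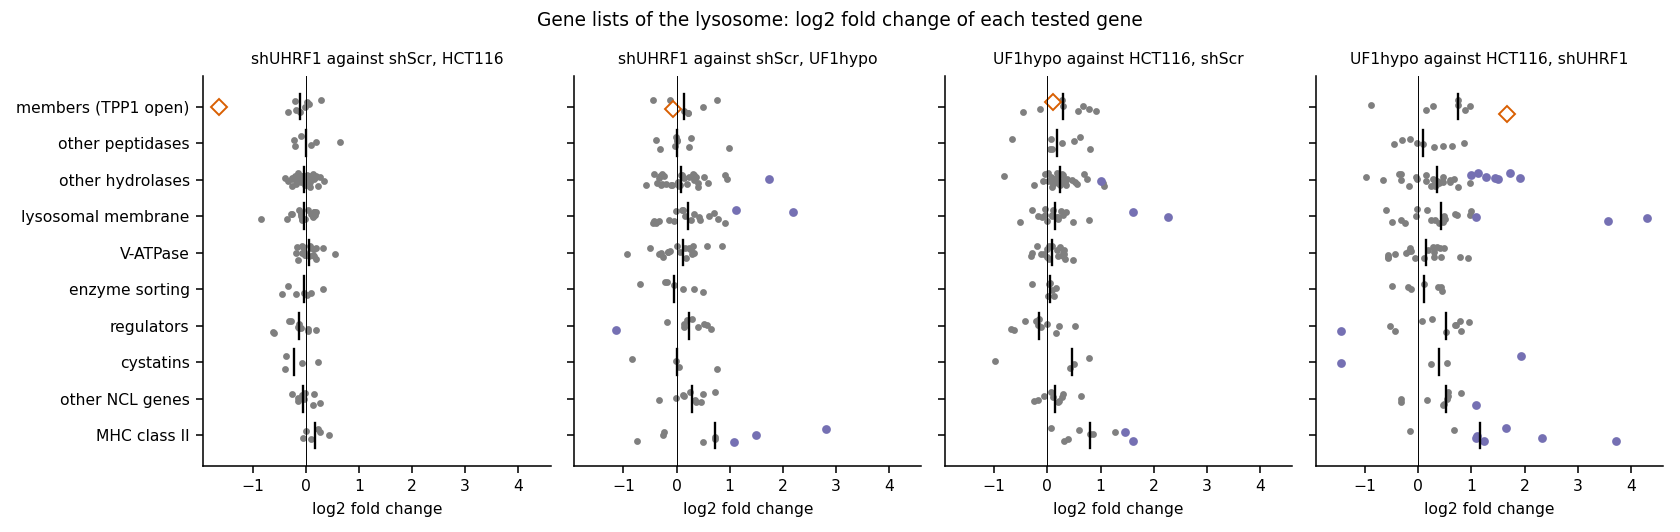
Log2 difference in TPM + 1 (x axis) of each tested gene of the members and of 9 lists (rows) in 4 comparisons (panels), with grey points for genes not called, violet points for genes called, a black line at the median of each list and an open diamond for TPP1. In HCT116 no gene of the 9 lists is called, and TPP1, shown without a test, lies at -1.63. In UF1hypo against HCT116 with shUHRF1 7 of 33 other hydrolases are called higher.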

How the data were processed

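Poly(A) RNA of 8 libraries was sequenced in pairs of reads. Per the labels and the study's methods, the authors used Fastp for trimming, HISAT2 2.0.4 for alignment to GRCh38 and StringTie 2.1.4 for quantification; the deposited tables hold coverage (the signal per base), FPKM and TPM for each gene, and no read counts. Coverage divided by FPKM gave the depth. TPM sums to 1000000 per library, so a change in abundant genes moves all others. Gene classes came from GENCODE 44. Values were tested as log2(TPM + 1), which understates changes of low genes, with limma 3.58.1 (lmFit, eBayes with trend; R 4.3.3), all 8 libraries in 1 fit, on protein-coding genes above 1 TPM in at least 1 library compared, with Benjamini-Hochberg adjustment over all genes tested; the scripts were tested on simulated data. A gene passed at adjusted p below 0.05 and was called when its log2 difference also exceeded 1 in size. Named genes were the members, UHRF1, protein-coding genes within 100 kb of TPP1, the 5 most like TPP1, and per list and comparison up to 4 called genes; lowest or highest genes of a list were added after their values were seen. The members and lists were chosen with earlier results of these data known. Alternatives covered the pseudocount, filter, unit, scaling, repeated records, samples, trend, replicate block and single libraries; library weights and the GC and length correction were added after seeing the data.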

Additional observations from a re-analysis of the deposited data

Results flagged for a closer look

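For 5 genes of the lysosomal and antigen-processing lists, the UHRF1 knockdown effect in UF1hypo differed from that in HCT116 by the interaction test (limma, adjusted p below 0.05 and a log2 difference above 1), against 4.54% of 13781 genes called higher and 0.559% lower. They were 1 of 33 hydrolases, 3 of 20 membrane proteins and 1 of 9 MHC class II genes tested. None was called among 9 other peptidases, 20 V-ATPase subunits, 7 sorting genes, 11 regulators, 4 cystatins or 10 other lipofuscinosis genes. Taken over all these lists, the share called was near that of all genes, so the count does not set the lysosome apart. CD74, the MHC class II invariant chain, had a difference of 2.28 (SE 0.36, adjusted p = 0.0102). LAMP3 had a difference of 2.04 (SE 0.36, adjusted p = 0.0168), and CD68 of 1.95 (SE 0.28, adjusted p = 0.00777), the latter with 12.2 and 13.7 TPM in HCT116 shScr, 6.27 and 7.31 TPM in HCT116 shUHRF1 and higher levels with shUHRF1 in UF1hypo. SMPD1 had a difference of 1.60 (SE 0.34, adjusted p = 0.0362). NPC1, a cholesterol exporter of the lysosomal membrane, had a difference of 1.06 (SE 0.22, adjusted p = 0.0300), from 38.8 and 42.2 to 33.2 and 29.8 TPM in HCT116 and from 37.0 and 38.8 to 64.4 and 60.6 TPM in UF1hypo. In 8 fits without 1 library each, CD68 passed in 6, CD74 in 4, and LAMP3, SMPD1 and NPC1 in 2 each, with differences of 1.73 to 2.18, 1.99 to 2.56, 1.68 to 2.39, 1.33 to 1.87 and 0.99 to 1.14. Over 10 other alternatives, LAMP3 and CD68 passed in all, CD74 in 9, NPC1 in 7 and SMPD1 in 5.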

How the results depend on the processing

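The TPP1 difference in HCT116 with shUHRF1 lay between -1.76 and -1.50 in all 15 other fits, and that in UF1hypo within -0.14 to 0.02. These fits reuse the values that chose TPP1, so they describe the processing and lend the pattern no further support. The number of genes called in HCT116 was 9, and 30 with a pseudocount of 0.1, 2 without the TPM filter, 3 with median-ratio scaling, 5 without a variance trend, 89 in the 4 libraries alone, 101 with library weights, 72 with the GC and length correction and 0 in each of the 4 fits without 1 library (limma; 810 genes had an unadjusted p below 0.05 with all libraries). Without a known pairing, since same-numbered libraries correlated by at most 0.055 and the 2 UF1hypo groups by -0.402, a fit with the replicate block gave 1 call in HCT116 and left 0 members past the threshold in UF1hypo. In UF1hypo 1162 genes were called, 749 with FPKM, 563 in the 4 libraries alone, 539 with library weights and 655 to 2255 without 1 library. The difference of the knockdown effects gave 702 calls, 448 with a pseudocount of 0.1, 419 with library weights and 171 to 2142 without 1 library. The lines differed in 455 genes with shScr (149 to 190 without 1 library) and in 2205 with shUHRF1 (1585 to 3859).

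Of the 8 members tested, the number past the threshold in UF1hypo was 1, and 0 without the TPM filter, with median-ratio scaling, in the 4 libraries alone, without a trend and with library weights, and 0 to 3 without 1 library (0 to 1 called). For the difference it was 0, and 1 after GC and length correction and 0 to 2 without 1 library (0 to 1 called). For the lines with shScr it was 1, and 2 with FPKM, 3 with quantile normalization, 5 in the 4 libraries alone, 5 with library weights, 4 after GC and length correction and 0 in each fit without 1 library; with shUHRF1 it was 6, and 2 in the 4 libraries alone, 3 with library weights and 3 to 6 without 1 library (1 to 3 called). Small differences changed sign: CTSC in HCT116 to 0.0313, 0.0433 and 0.0525 with median-ratio scaling, quantile normalization and GC and length correction (-0.108 to 0.0829 without 1 library), CTSZ in HCT116 (-0.0599 to 0.102 without 1 library), CTSA in UF1hypo to -0.0071 and CTSB between the lines with shUHRF1 to -0.0560 after GC and length correction, and, without 1 library, CTSH (-0.237 to 0.0046) and CTSB (-0.260 to 0.107) in UF1hypo and the CTSB difference (-0.330 to 0.0367). Quantile normalization moved the median of all genes by over 0.1, to -0.06 in UF1hypo, -0.06 for the difference and -0.09 between the lines with shUHRF1. The cause of these changes was not tested. A design of 2 libraries a group limits all of these calls, and depth in reads per gene is not given by the files beyond coverage.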
